A study of Mus musculus with 10 samples.

Results

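Primary cortical neurons that carried a control lentivirus were compared after 24 h with brain-derived neurotrophic factor (BDNF) and without it, across every expressed gene. The comparison rests on 4 of the 10 libraries of the series, chosen by their titles: BDNF replicates 1 and 2, and Control replicates 1 and 2. The remaining libraries are BDNF replicate 3, Control replicate 3, and 4 libraries of neurons infected with a virus that expresses the histone variant H2BE. The BDNF group held wild-type neurons with the control virus and BDNF. The Control group held wild-type neurons with the same virus, left unstimulated. In both groups the cells came from C57BL/6J embryos at E16.5 (embryonic day) and were given 0.5 µM AraC, which kills dividing cells, at 3 to 4 days in vitro. The labels give no BDNF dose and do not say whether the replicates came from separate cultures. The p-values therefore measure a spread between libraries, which may be technical. That spread is estimated over 8 libraries, the 4 of the H2BE virus included. Polyadenylated RNA was sequenced and counted per gene.

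The libraries held 11730663 and 12472505 counts in the BDNF group, against 14142545 and 5682480 in the Control group. BDNF replicate 3 and Control replicate 3 exceeded replicate 1 of their group at 0 genes and held 61.9% and 73.7% of its counts, so each was treated as a subset of that library and not as a replicate. Of the 48526 genes listed, 13452 had enough counts to be tested, and these carried 99.8% of the counts of the 4 libraries. The first principal component of the 8 distinct libraries held 53.8% of the variance. BDNF libraries lay at −25.65 and −30.06 on it, and Control libraries at 24.33 and 26.28. Levels below are in CPM, counts scaled by library size and not by transcript length, so a level, a sum or a gain in CPM is a share of the sequenced RNA, and genes are not ranked by how many transcripts they make. Each sum of a culture's RNA mixes cell types, so fewer cells of a type and less RNA per cell cannot be told apart.

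BDNF is a secreted neurotrophin. It binds the receptor tyrosine kinase TrkB, encoded by Ntrk2, and the p75 receptor, encoded by Ngfr. TrkB recruits adaptors such as the Shc proteins and drives the Ras–ERK, PI3K–AKT–mTOR and phospholipase C–calcium branches. These branches act on transcription factors such as CREB, serum response factor and the EGR family, and on protein synthesis. In cortical neurons BDNF is known for supporting dendrite growth, synapse maturation and the production of neuropeptides.

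The response covered 31.4% of the genes tested. At an adjusted p under 0.05, 4225 genes changed, of which 2264 (16.8%) rose and 1961 (14.6%) fell with BDNF, and 9227 genes did not pass. Most changes were small. The median change among the called genes was 1.37-fold, and 2716 of the 4225 changed by less than 1.5-fold. Changes over 2-fold were reached by 680 genes, or 5.06% of those tested, 431 upward and 249 downward. Over 4-fold there were 106 genes up and 31 down, and over 8-fold 35 up and 4 down. The genes over 8-fold include 18 that rose from 3 or fewer counts in the Control libraries together. They also include 3 that fell to as few counts in the BDNF libraries. The filter on low counts largely sets the direction of such genes, so the balance at large changes is not read as a result. The CPM of the groups did not overlap for 64.2% of all genes tested, so separation of the libraries was common and is read below only beside the test. Separation held for 4220 of the 4225 called genes, so it adds little to a call. The median log2 fold change over all genes tested was −0.01, which the scaling of the libraries places near no change.

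A call is termed held below where it stood, with its direction, with each of the 4 libraries left out in turn and in a fit corrected for the length and GC content of transcripts. Of all genes tested, 1857 calls were held, 1051 upward and 806 downward, and 407 of them were over 2-fold. Every single gene given below as risen or fallen was a held call unless its sentence says otherwise, while the counts of list members are of all calls. A change is given as the log2 fold change of BDNF over Control with its standard error. That error was derived from the F statistic of the test, as the size of the change divided by the square root of F. Each group's mean comes from its 2 libraries, while the spread behind the standard errors and p-values is estimated over 8 libraries, the 4 of the H2BE virus included. With only the 4 control-virus libraries in the fit 3541 genes were called, and all 1857 held calls stood. Of the genes named below, 13 called in the main test were not called there, none of them held. The counting is not stated to use strand, so overlapping and antisense genes cannot be told apart, and near-identical copies (tubulins, ribosomal proteins and histones among them) are uncertain as single genes.

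**Figure D1:**
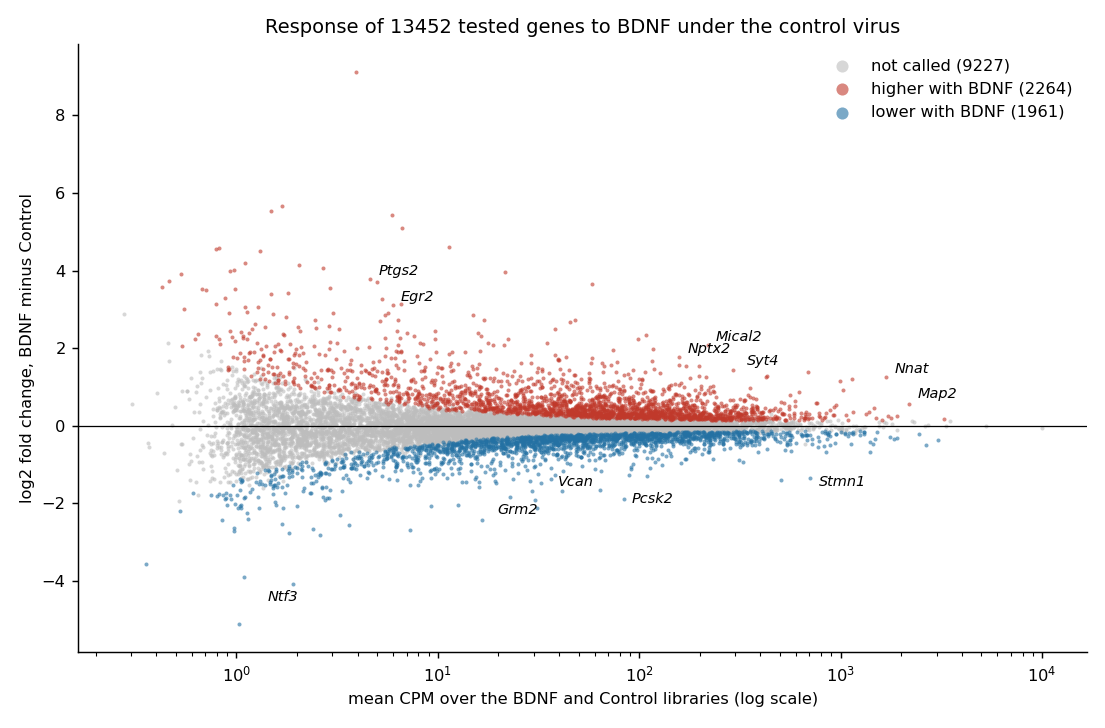
Log2 fold change of BDNF over Control against the mean CPM of the 4 libraries (log axis) for all 13452 genes tested, with the 2264 genes that rose, the 1961 that fell and the 9227 that did not pass in different colours. Called genes spread along the whole range of levels. The points over 8-fold lie mostly above the zero line, and many of the called genes among them were almost silent in the BDNF or the Control libraries.

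Read as a share of the RNA, the genes that rose summed to 282696 and 292464 CPM in the BDNF libraries, against 214603 and 217690 CPM in the Control libraries. The genes that fell summed to 190091 and 186433 CPM in the BDNF libraries, against 240783 and 239460 CPM in the Control libraries. Genes that did not pass held 532893 CPM on average in the BDNF group and 534285 CPM in the Control group. The shift was spread over many genes. The 15 largest gains carried 11.7% of the CPM gained, and 268 genes were needed for 50% of it. The 15 largest losses carried 14.1% of the CPM lost, and 185 genes were needed for 50% of it.

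The largest gain belonged to Nnat (chr2:157560078-157562522, plus strand, mm10), which encodes neuronatin, a small membrane protein of the endoplasmic reticulum. It had 2485 and 2267 CPM in the BDNF libraries, against 1031 and 947 CPM in the Control libraries. Both BDNF libraries were far above both Control libraries, and the log2 fold change was 1.26 ± 0.07 (adjusted p = 1.6e-09). Map2, which encodes a dendritic microtubule-associated protein, had 2533 and 2659 CPM with BDNF, against 1743 and 1795 CPM in Control. Syt4, a synaptotagmin of secretory vesicles that contain peptides and BDNF, had 880 and 1106 CPM with BDNF, against 386 and 378 CPM in Control. None of these genes overlapped between the groups, and Syt4 differed more between its BDNF libraries than between its Control libraries. Further large gains were those of Ank3, the ankyrin of the axon initial segment (0.86 ± 0.06), Plxna4, a semaphorin co-receptor (1.29 ± 0.08), Ptprn, a protein of dense-core vesicles (1.25 ± 0.05), and Dync1h1, the dynein heavy chain (0.46 ± 0.05).

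Among the largest losses were genes of the growing cytoskeleton. Stmn1 (chr4:134468320-134473843, plus strand) encodes stathmin, which sequesters tubulin. It had 425 and 371 CPM with BDNF, against 1044 and 994 CPM in Control. The BDNF libraries lay below the Control libraries by a wide margin, with a log2 fold change of −1.36 ± 0.06 (adjusted p = 2.59e-10). Nrep, a gene known from regenerating neurons, had 243 and 312 CPM with BDNF, against 790 and 678 CPM in Control (−1.41 ± 0.10). Gpm6a, a membrane glycoprotein of growth cones, fell by 0.68 ± 0.06 on the log2 scale. The alpha- and beta-tubulin genes Tuba1a, Tubb2b and Tubb3 had log2 fold changes of −0.38 ± 0.05, −0.46 ± 0.06 and −0.47 ± 0.05. Marcksl1, a membrane-bound regulator of actin, fell by 0.68 ± 0.05.

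**Figure D2:**
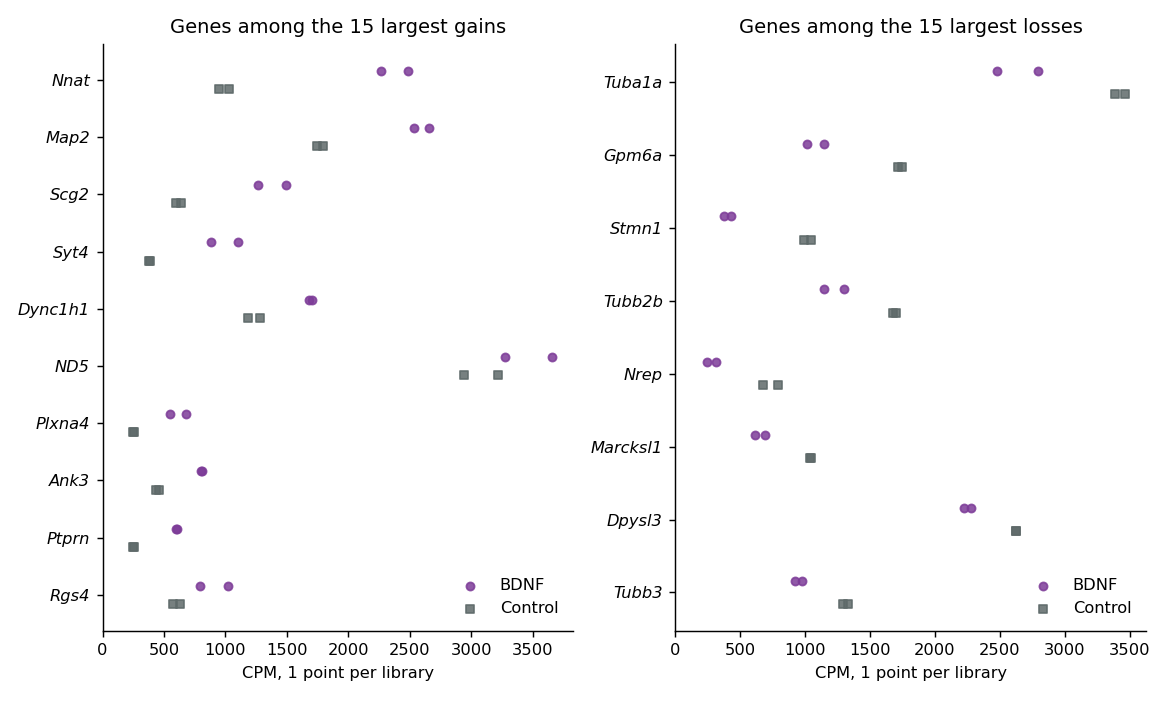
CPM in each of the 4 libraries, on axes that start at 0, for 10 of the 15 called genes with the largest gain and 8 of the 15 with the largest loss in mean CPM, BDNF libraries drawn above Control libraries. Nnat heads the gains, and the symbols of the groups do not overlap for any gene shown.

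The genes were also read by p-value. Mical2 (chr7:112225856-112413106, plus strand) encodes a flavin enzyme that oxidises actin and makes filaments fall apart. It had 341 and 366 CPM in the BDNF libraries, against 82.5 and 84.6 CPM in the Control libraries, a log2 fold change of 2.08 ± 0.06 with the smallest adjusted p of the table (4.09e-12). Tspan9, a tetraspanin of the cell surface, had 193 and 179 CPM with BDNF, against 46.5 and 49.8 CPM in Control (1.96 ± 0.07). Within each group the libraries of both genes differed little, and the groups stood far apart.

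Other genes with small p-values also rose. Peg10, an imprinted gene derived from a retrotransposon, had a log2 fold change of 1.53 ± 0.06. The values were 1.43 ± 0.06 for Chst2, a sulfotransferase of the Golgi, and 1.64 ± 0.08 for Clic4, an intracellular chloride channel protein. Slc24a3, an exchanger of sodium for calcium and potassium, changed by 1.27 ± 0.06, Oxr1, a gene of oxidation resistance, by 1.26 ± 0.06, and Sik3, a salt-inducible kinase, by 1.22 ± 0.06.

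On the falling side, Ypel1 (chr16:17069696-17087045, plus strand), a gene of the yippee-like family, had 12.5 and 10.6 CPM in the BDNF libraries, against 49.9 and 51.0 CPM in the Control libraries. Every BDNF library was below every Control library, with a log2 fold change of −2.12 ± 0.11 (adjusted p = 2.01e-09). Mturn, a gene of neural differentiation, had 220 and 230 CPM with BDNF, against 426 and 440 CPM in Control (−0.94 ± 0.05). Shroom2, which shapes cells through actin and myosin, fell by 1.26 ± 0.08. Ssbp2, a partner of LIM-domain transcription complexes, fell by 1.31 ± 0.08. The surface and matrix proteins Cd24a, Cspg5 and Spock3 had log2 fold changes of −1.02 ± 0.06, −0.89 ± 0.06 and −0.87 ± 0.06. Ace, the angiotensin-converting enzyme, had 22.7 and 17.2 CPM with BDNF, against 66.0 and 60.1 CPM in Control (−1.68 ± 0.11).

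Calls were more frequent among genes with more counts. In the lowest quintile of the genes by mean CPM 8.14% rose and 7.36% fell, while in the highest quintile 28.5% rose and 20.5% fell. A gene of the highest quintile therefore had to change less to be called, and a gene that did not pass in the lowest quintile is weak evidence of no change. Protein-coding genes passed the test in 32.7% of 12499 cases. Long noncoding genes passed in 16.7% of 568 cases, 39 upward and 56 downward.

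The change also followed transcript length. By quintiles of annotated length, from the shortest to the longest, the median log2 fold change was −0.11, −0.05, −0.02, 0.01 and 0.11. In the shortest quintile 209 genes rose and 474 fell, and in the longest 856 rose and 294 fell. The same quintiles under the H2BE virus gave 0.05, 0.02, 0.01, −0.02 and −0.04, a trend in the other direction. Within the control virus every pair of a BDNF and a Control library gave a higher median in the longest quintile than in the shortest. A fit with an offset for length and GC content called 2244 genes up (16.7%) and 1883 down (14%), close to the uncorrected numbers. The part of length in any one gene's change was not tested. Counts from that corrected fit are given below for the pathway and family lists in which the correction moved the number up or down by over 1.5 times and by more than 1 gene.

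**Figure D3:**
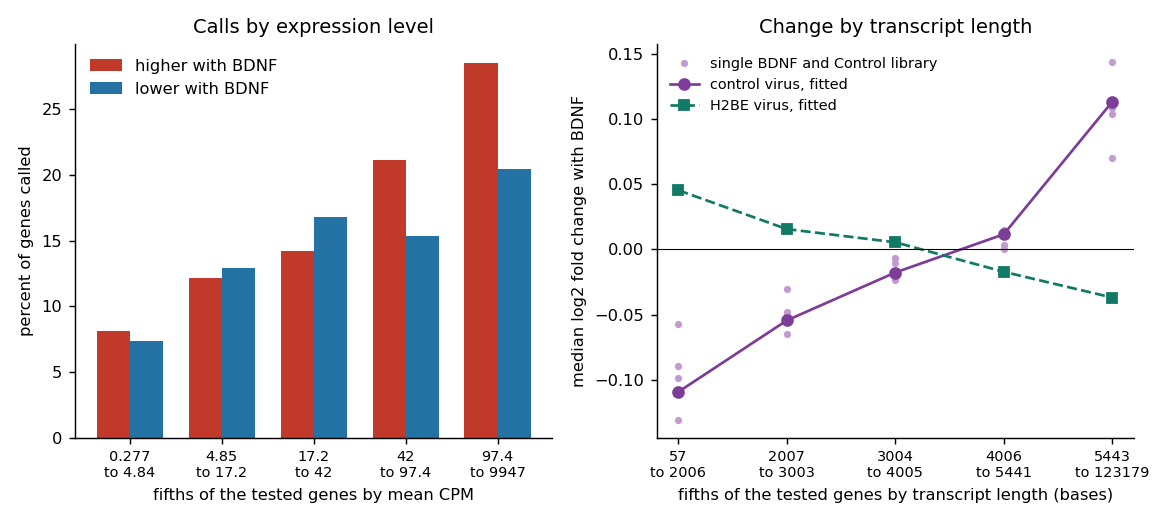
Percent of genes that rose and fell in each quintile of mean CPM, and median log2 fold change in each quintile of transcript length under the control virus (with the single library pairs as points) and under the H2BE virus. The share of called genes climbs with the level, and the control-virus medians climb with length from −0.11 to 0.11 while the H2BE-virus medians run the other way, 0.05 to −0.04.

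The genes were next read through 56 lists of pathways, families and complexes, each described by how many of its tested members passed in each direction and by its median log2 fold change. The background for each count is 16.8% of all genes rising and 14.6% falling, and the background for each median is −0.01. This background is not matched to the level or transcript length of a list's members. In the highest quintile of mean CPM 28.5% rose and 20.5% fell, against 8.14% and 7.36% in the lowest. The shares and the median also varied with transcript length, as given above. Whether a list differs from genes of like level and length was not tested.

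**Figure D4:**
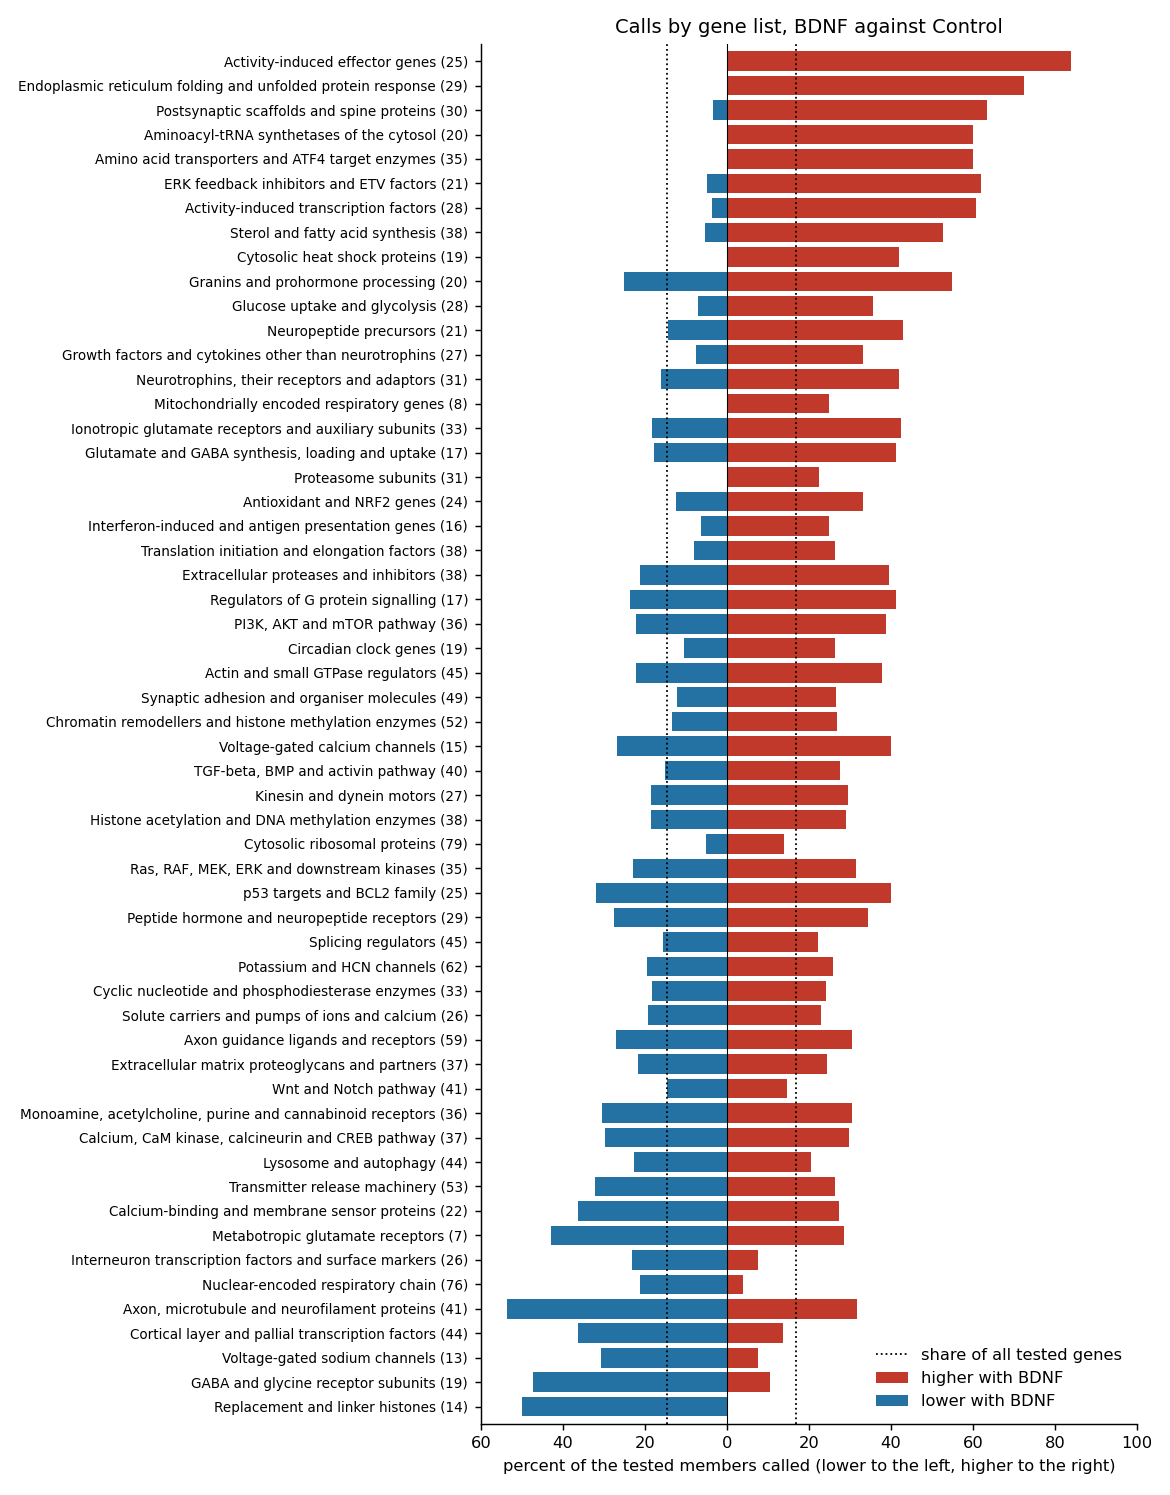
Percent of tested members that rose and that fell in each of the 56 gene lists, with dotted lines at the share of all tested genes (16.8% up, 14.6% down). Activity-induced effector genes (21 of 25 up) and endoplasmic reticulum folding genes (21 of 29 up) lie far above the line, and replacement histones have 0 of 14 up and 7 of 14 down.

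Of 31 tested neurotrophins, receptors and adaptors, 13 rose and 5 fell, with a median of 0.19. Ntf3, which encodes neurotrophin-3, had 0 and 5 counts with BDNF, against 58 and 18 counts in Control, and its adjusted p was 0.000134. The other genes that fell were the receptors given next and the adaptors Frs3 and Shc2, whose calls were not held. Bdnf itself had 98.2 and 132 CPM with BDNF, against 95.6 and 85.1 CPM in Control. The lower BDNF library was close to the higher Control library, and the call of Bdnf (0.34 ± 0.11) was lost without BDNF replicate 2 (adjusted p = 0.348) and without Control replicate 2 (adjusted p = 0.141).

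The receptor gene Ntrk2 was lower with BDNF, at 486 and 535 CPM, against 619 and 641 CPM in Control (−0.30 ± 0.05). Ngfr had 12.4 and 6.02 CPM with BDNF, against 15.2 and 17.0 CPM in Control. Its call (−0.80 ± 0.23) was lost without BDNF replicate 2 (adjusted p = 0.144) and without either Control library. The sorting receptors of the sortilin family, which carry neurotrophins and their precursors, included Sort1 (0.64 ± 0.06) and Sorcs2 (0.46 ± 0.06), and both rose. Among adaptors, Shc4 had 28.2 and 22.7 CPM with BDNF, against 6.53 and 6.99 CPM in Control (1.93 ± 0.16). Shc3, the neuronal Shc adaptor, had 94.6 and 96.0 CPM with BDNF, against 46.1 and 47.9 CPM in Control (1.03 ± 0.07). Cbl, a ubiquitin ligase that marks activated receptor kinases for degradation, rose by 0.58 ± 0.06.

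Of 35 genes of the Ras–ERK cascade, 11 rose and 8 fell, with a median of 0.01. Mapk3, which encodes ERK1, fell by 0.40 ± 0.06. Braf rose by 0.39 ± 0.07. The Ras activator Rasgrp1 (0.53 ± 0.08) and the Ras inhibitors Nf1 (0.47 ± 0.06) and Rasa1 (0.42 ± 0.07) rose together. Among kinases downstream of ERK, Rps6ka2 rose by 0.61 ± 0.07. Rps6ka5, which encodes the histone kinase MSK1, had 9.10 and 7.89 CPM with BDNF, against 21.1 and 23.2 CPM in Control (−1.37 ± 0.14). Elk3, an ETS factor that binds beside serum response factor, had 8.07 and 9.77 CPM with BDNF, against 1.19 and 1.75 CPM in Control (2.70 ± 0.28).

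Of 21 ERK feedback genes, which include negative regulators of the same pathway, 13 rose and 1 fell, with a median of 0.87. Of those that rose 12 were held calls, and the one that fell, Dusp8, was not. The ETS factor Etv5 had 126 and 125 CPM with BDNF, against 49.7 and 50.9 CPM in Control (1.32 ± 0.07). Dusp6, a phosphatase specific for ERK in the cytoplasm, had 96.2 and 118 CPM with BDNF, against 35 and 39 CPM in Control (1.55 ± 0.10). In both genes every BDNF library was more than 2-fold above every Control library. The nuclear phosphatases Dusp4 and Dusp5 changed by 1.07 ± 0.07 and 1.62 ± 0.13, and the Sprouty gene Spry2 by 1.20 ± 0.07.

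In the PI3K, AKT and mTOR list 14 of 36 genes rose and 8 fell, with a median of 0.06. Irs2, an insulin receptor substrate, had 101 and 121 CPM with BDNF, against 42.2 and 42.6 CPM in Control (1.39 ± 0.09). Pik3r1, the p85 regulatory subunit of PI3K, had 180 and 171 CPM with BDNF, against 262 and 276 CPM in Control (−0.62 ± 0.06). Sesn2 and Ddit4, inhibitors of mTOR complex 1, rose by 0.96 ± 0.08 and 0.64 ± 0.07, and Mtor itself rose by 0.38 ± 0.07. The FOXO transcription factor genes Foxo6 and Foxo3 fell by 1.23 ± 0.11 and 0.41 ± 0.09.

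The calcium and CREB list was divided evenly, with 11 of 37 genes up and 11 down. Camk2a and Camk2b, the main kinases of the postsynaptic density, had log2 fold changes of −0.36 ± 0.06 and −0.24 ± 0.05. Prkcb, a protein kinase C isoform, had 299 and 298 CPM with BDNF, against 145 and 158 CPM in Control (0.99 ± 0.06). Itpr1, the calcium channel opened by inositol trisphosphate, rose by 0.84 ± 0.12, and Rcan2, an inhibitor of calcineurin, by 0.67 ± 0.08. Creb1 had 73.9 and 77.6 CPM with BDNF, against 75.7 and 77.6 CPM in Control, with overlapping libraries and no call (adjusted p = 0.913). Crem, a gene of the same family whose products include repressors, rose by 0.87 ± 0.11.

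At 24 h, 17 of the 28 activity-induced transcription factors tested were higher with BDNF and 1 was lower, with a median of 0.62. Of those that rose 11 were held calls, and the one that fell, Jund, was not. Fosb had 24.5 and 30.3 CPM with BDNF, against 5.83 and 4.72 CPM in Control (2.32 ± 0.17). Csrnp1 had 14.5 and 13.2 CPM with BDNF, against 3.51 and 2.62 CPM in Control (2.10 ± 0.19). Egr2, a zinc-finger factor of the EGR family, had 10.1 and 10.7 CPM with BDNF, against 0.632 and 2.45 CPM in Control (3.11 ± 0.38). The BDNF libraries of all 3 genes were above the Control libraries, while the Control libraries of Egr2 differed widely from each other. Fos, Junb, Egr4 and Atf3 changed by 1.04 ± 0.09, 0.79 ± 0.13, 1.44 ± 0.22 and 1.63 ± 0.23.

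Other members of the list had smaller differences. The nuclear receptor genes Nr4a1 and Nr4a3 had log2 fold changes of 0.34 ± 0.10 and 0.30 ± 0.10, and Nr4a2 one of −0.10 ± 0.12 (adjusted p = 0.543). Npas4, a factor induced by calcium entry, had 24.9 and 34.1 CPM with BDNF, against 23.5 and 20.4 CPM in Control (0.40 ± 0.14). The calls of Nr4a1, Nr4a3 and Npas4 were lost without Control replicate 1 (adjusted p of 0.377, 0.0904 and 0.0892).

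Activity-induced effector genes, which act at synapses and in signalling, rose in 21 of 25 cases and fell in 0, with a median of 0.65, and 15 were held calls. Nptx2, a secreted pentraxin that gathers AMPA receptors, had 263 and 230 CPM with BDNF, against 83.6 and 55.4 CPM in Control (1.77 ± 0.14). Ptgs2, which encodes cyclooxygenase-2, had 7.64 and 9.44 CPM with BDNF, against 0.491 and 0.874 CPM in Control (3.79 ± 0.32). Rasl11a, a small Ras-like GTPase, had 9.10 and 11.1 CPM with BDNF, against 1.61 and 0.699 CPM in Control (2.91 ± 0.27). No library of one group reached the range of the other. Plk2, a kinase of synaptic scaling, changed by 0.81 ± 0.06, and Pim1, a survival kinase, by 1.91 ± 0.18. Cdkn1a, the inhibitor of cyclin-dependent kinases p21, had 225 and 222 CPM with BDNF, against 123 and 99.3 CPM in Control.

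**Figure D5:**
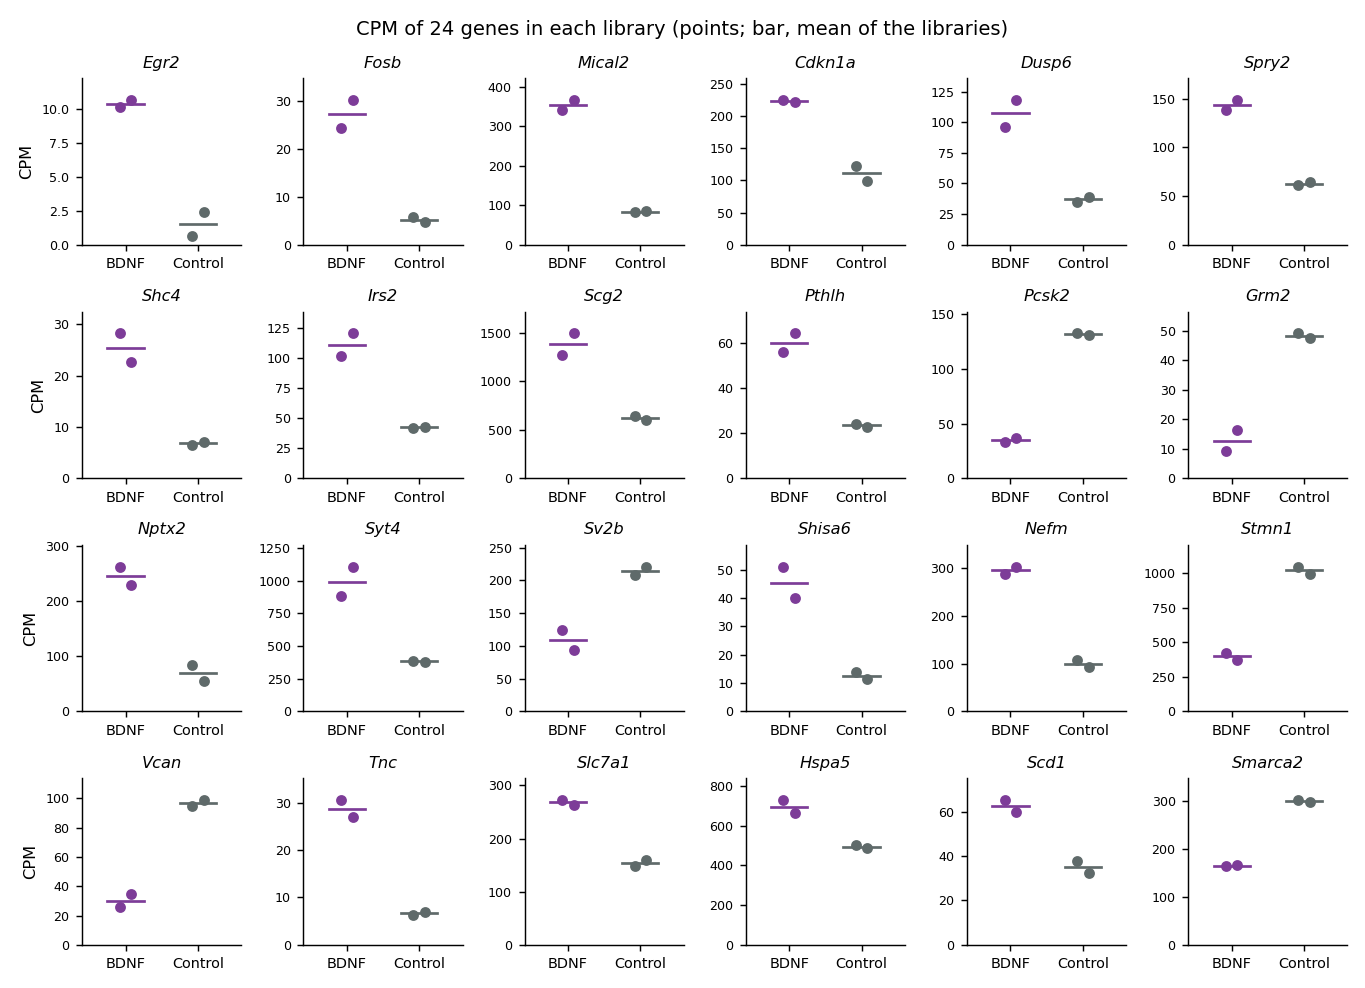
CPM in each of the 4 libraries for 24 genes named in the text, BDNF libraries left of Control libraries in each panel, each panel on its own axis starting at 0. BDNF libraries lie above Control libraries for genes such as Fosb, Dusp6, Tnc, Syt4 and Nefm, and below them for genes such as Pcsk2, Grm2, Sv2b, Stmn1, Vcan and Smarca2.

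Promoter sequences were read for 5 genes that carry the contrasts of this comparison, because each holds a motif known for a pathway of the lists. The windows are the 250 bases before the annotated start, 5′ to 3′ on the gene's strand, from RefSeq on GRCm38.p6. Capitals mark the motif match. The Egr2 window (chr10:67537316-67537565, plus strand) holds a CArG box, the site of serum response factor, 72 bases before the start. The Scg2 window (chr1:79440027-79440276, minus strand) and the Sst window (chr16:23890845-23891094, minus strand) hold a cyclic AMP response element, searched as TGACGTCA, 68 and 48 bases before the start. The Hspa5 window (chr2:34771840-34772089, plus strand) holds an endoplasmic reticulum stress element, and the Slc7a11 window (chr3:50443614-50443863, minus strand) holds 2 matches to the element bound by ATF4.
Egr2: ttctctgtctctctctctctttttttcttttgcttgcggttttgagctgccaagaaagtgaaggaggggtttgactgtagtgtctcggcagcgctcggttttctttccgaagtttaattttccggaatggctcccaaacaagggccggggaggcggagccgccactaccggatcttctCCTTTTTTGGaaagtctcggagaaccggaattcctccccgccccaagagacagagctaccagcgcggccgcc
Scg2: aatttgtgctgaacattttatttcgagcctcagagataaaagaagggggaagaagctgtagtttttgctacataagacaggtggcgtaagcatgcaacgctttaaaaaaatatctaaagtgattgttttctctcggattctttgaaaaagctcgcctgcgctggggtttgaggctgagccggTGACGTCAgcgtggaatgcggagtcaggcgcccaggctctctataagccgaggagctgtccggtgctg
Sst: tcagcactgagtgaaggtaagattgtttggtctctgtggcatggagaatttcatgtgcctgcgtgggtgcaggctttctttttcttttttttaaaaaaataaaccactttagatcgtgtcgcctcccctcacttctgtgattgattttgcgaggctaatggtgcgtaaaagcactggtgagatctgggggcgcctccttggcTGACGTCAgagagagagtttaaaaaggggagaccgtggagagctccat
Hspa5: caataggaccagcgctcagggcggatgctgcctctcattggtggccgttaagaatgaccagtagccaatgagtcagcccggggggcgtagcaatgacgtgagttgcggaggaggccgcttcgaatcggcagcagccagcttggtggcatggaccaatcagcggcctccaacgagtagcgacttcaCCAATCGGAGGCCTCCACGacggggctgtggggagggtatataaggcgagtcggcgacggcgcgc
Slc7a11: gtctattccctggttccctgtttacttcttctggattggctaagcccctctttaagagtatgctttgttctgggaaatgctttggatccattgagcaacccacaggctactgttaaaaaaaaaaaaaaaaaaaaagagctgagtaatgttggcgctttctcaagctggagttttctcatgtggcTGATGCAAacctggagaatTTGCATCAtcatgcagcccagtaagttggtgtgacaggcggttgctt
All motifs were searched on both strands, and a match is a description of the letters, not of a bound site. Scg2 and Sst share the same TGACGTCA letters and moved in opposite directions: Scg2 had 1267 and 1490 CPM with BDNF, against 638 and 596 CPM in Control, and Sst had 498 and 483 CPM with BDNF, against 656 and 606 CPM in Control. The TGACGTCA letters stood in 326 of the 10139 promoters of tested genes (3.22%) and in 478 of all 27025 promoters of the table (1.77%), and the CArG box in 147 (1.45%) and 439 (1.62%).

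Of 21 neuropeptide precursors tested, 9 rose and 3 fell, with a median of 0.50. All 9 that rose were held calls. Pthlh, which encodes parathyroid hormone-related peptide, had 55.8 and 64.2 CPM with BDNF, against 24.1 and 22.7 CPM in Control (1.35 ± 0.10). Pnoc, which encodes the nociceptin precursor, had 129 and 157 CPM with BDNF, against 62.3 and 63.6 CPM in Control (1.18 ± 0.09). Grp, which encodes gastrin-releasing peptide, had 8.07 and 10.7 CPM with BDNF, against 0.702 and 1.57 CPM in Control (3.27 ± 0.34). For each of these the groups did not overlap. Tac1, Cck, Crh and Cort, which encode substance P, cholecystokinin, corticotropin-releasing hormone and cortistatin, changed by 1.03 ± 0.14, 1.32 ± 0.23, 0.99 ± 0.16 and 0.89 ± 0.14. The BDNF libraries of Cck stood apart from each other, at 44.6 and 92.1 CPM. Cartpt fell by 1.52 ± 0.29 and Sst, which encodes somatostatin, by 0.37 ± 0.06, and the third, Pomc, was not a held call.

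The proteins that pack and cut prohormones also moved in both directions, with 11 of 20 up, 5 down and a median of 0.28. Granin genes divided: Scg2 and Scg3 rose by 1.16 ± 0.07 and 0.49 ± 0.08, while Chgb, which encodes secretogranin-1, had 278 and 319 CPM with BDNF, against 481 and 472 CPM in Control (−0.67 ± 0.06). Cadps2, a protein that primes dense-core vesicles, rose by 0.91 ± 0.11. Pcsk1n, which encodes the inhibitor of the prohormone convertase PC1, fell by 0.46 ± 0.07. Pcsk2, the convertase PC2, fell by 1.90 ± 0.08 and was the called gene of smallest p on the falling side. The remaining genes that fell were Pcsk6 and Scg5, and the call of Scg5 was not held.

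Peptide receptors were divided as well, with 10 of 29 up and 8 down. Tacr3, the neurokinin B receptor, had 13.0 and 12.2 CPM with BDNF, against 2.39 and 2.80 CPM in Control (2.32 ± 0.20). Nmbr, the neuromedin B receptor, changed by 1.46 ± 0.17 and Oxtr, the oxytocin receptor, by 2.01 ± 0.28. The somatostatin receptors parted, Sstr2 at 40.9 and 39.1 CPM with BDNF, against 17.9 and 20.4 CPM in Control, and Sstr1 at 9.70 and 14.3 CPM with BDNF, against 25.7 and 26.6 CPM in Control. Ntsr1, the neurotensin receptor, fell by 1.47 ± 0.12 and Avpr1a, a vasopressin receptor, by 2.30 ± 0.31. Monoamine, acetylcholine, purine and cannabinoid receptors had 11 of 36 up and 11 down. Htr1b, a serotonin receptor of terminals, rose by 1.20 ± 0.14, and Adora1, the adenosine A1 receptor, by 0.65 ± 0.06. Chrna4, a nicotinic receptor subunit, had 12.5 and 13.8 CPM with BDNF, against 35.7 and 32.3 CPM in Control (−1.38 ± 0.11).

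At glutamate synapses, of 30 postsynaptic scaffold and spine genes 19 rose and 1 fell, with a median of 0.36, and 13 of those that rose were held calls. The one that fell was Nrgn, which encodes neurogranin, at −0.34 ± 0.07. These are mostly long genes: after the length and GC correction 18 rose, 2 fell and the median was 0.20. Shank1 had 347 and 341 CPM with BDNF, against 216 and 222 CPM in Control (0.65 ± 0.07). Lrrc7, which encodes densin, changed by 0.79 ± 0.08, Dlg2 by 0.45 ± 0.07 and Shank3 by 0.45 ± 0.06.

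Ionotropic glutamate receptor genes and auxiliary subunits had 14 of 33 up and 6 down. Gria1 had 336 and 409 CPM with BDNF, against 427 and 425 CPM in Control, and did not pass (adjusted p = 0.0587), nor did Grin1 (adjusted p = 0.318). Grin2a, an NMDA receptor subunit that increases as neurons mature, had 72.4 and 85.2 CPM with BDNF, against 43.7 and 53 CPM in Control (0.74 ± 0.10). Gria2 and Grin2b passed at 0.13 ± 0.05 and 0.31 ± 0.06, but their log2 fold changes were −0.00131 and −0.0837 after the length and GC correction, and neither was then called. Shisa6, which slows AMPA receptor desensitisation, had 51.1 and 40.0 CPM with BDNF, against 13.8 and 11.4 CPM in Control (1.81 ± 0.14). Gsg1l, which dampens AMPA receptors, had 11.2 and 9.85 CPM with BDNF, against 28.1 and 28.0 CPM in Control (−1.42 ± 0.14). Of 7 metabotropic receptors, 2 rose, Grm7 (0.58 ± 0.11) and Grm8 (0.51 ± 0.09), and 3 fell, of which only Grm2 was a held call. Grm2, a presynaptic receptor that curbs release, had 9.10 and 16.3 CPM with BDNF, against 49.0 and 47.4 CPM in Control.

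GABA and glycine receptor subunits leaned downward, with 2 of 19 up and 9 down and a median of −0.27. Gabra5, a receptor subunit, had a log2 fold change of −0.51 ± 0.08. Gabbr2, a subunit of the GABA-B receptor, rose by 0.50 ± 0.06. Of 17 genes that make, load and take up glutamate and GABA, 7 rose and 3 fell. Slc17a6, which encodes vesicular glutamate transporter VGLUT2, had 99.2 and 118 CPM with BDNF, against 51.0 and 46.0 CPM in Control (1.15 ± 0.09). Slc17a7, which encodes VGLUT1, had 224 and 175 CPM with BDNF, against 242 and 235 CPM in Control, and its call (−0.26 ± 0.08) was lost without BDNF replicate 2 (adjusted p = 0.305) and without either Control library. Gad2 rose by 0.44 ± 0.07, and Gad1 did not pass (adjusted p = 0.3).

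Release machinery was mixed, with 14 of 53 up and 17 down. The active-zone giants Bsn and Pclo had log2 fold changes of 0.70 ± 0.06 and 0.74 ± 0.06. Doc2b, a calcium sensor of release, had 65.3 and 68.5 CPM with BDNF, against 31.9 and 30.2 CPM in Control (1.10 ± 0.10). Others of the list fell. Sv2b, a glycoprotein of synaptic vesicles, had 124 and 94.5 CPM with BDNF, against 209 and 221 CPM in Control (−0.97 ± 0.09). Syn2, a synapsin, fell by 0.60 ± 0.06, Amph, an endocytic protein, by 0.50 ± 0.05, and Syp by 0.23 ± 0.05. Of 49 synaptic adhesion genes 13 rose and 6 fell. C1ql3 and Cbln2, secreted organisers that bridge synapses, changed by 1.30 ± 0.12 and 0.98 ± 0.13, and Cadm3 by −0.61 ± 0.05.

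The sodium, calcium and potassium channel lists each had calls in both directions. Sodium channels had 1 of 13 up and 4 down. The one that rose was Scn8a, which encodes Nav1.6 of the axon initial segment, at 222 and 225 CPM with BDNF, against 122 and 136 CPM in Control (0.80 ± 0.06). Nalcn, the sodium leak channel, and Scn3b, a beta subunit, fell by 0.32 ± 0.06 and 0.29 ± 0.06, and Fgf13 and Scn3a were called but not held. Calcium channels had 6 of 15 up and 4 down before and after the length and GC correction, which moved their median to 0.0066, against 0.16 uncorrected. Cacna1i and Cacna1g, both of the low-voltage T type, moved apart at 0.87 ± 0.09 and −0.47 ± 0.11, and Cacna1a, the P/Q-type channel of terminals, rose by 0.59 ± 0.06. Potassium and HCN channels had 16 of 62 up and 12 down. Kcnip3, a calcium-binding partner of Kv4 channels, had 50.7 and 41.9 CPM with BDNF, against 16.1 and 17.1 CPM in Control (1.49 ± 0.12). Kcnh2, which encodes the ERG channel, changed by 1.02 ± 0.08, Kcna1 by 0.78 ± 0.11, and the inward rectifier Kcnj2 by −1.13 ± 0.18.

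Of 26 ion pumps and exchangers 6 rose and 5 fell, and 5 rose and 8 fell after the length and GC correction. The sodium-calcium exchanger Slc8a1 had 233 and 235 CPM with BDNF, against 71.2 and 90.7 CPM in Control (1.56 ± 0.09). The potassium-dependent exchanger gene Slc24a4 had 4.29 and 5.70 CPM with BDNF, against 22.3 and 18.2 CPM in Control (−2.04 ± 0.18). Slc12a5, the chloride exporter KCC2, fell by 0.34 ± 0.07. Calcium-binding proteins had 6 of 22 up and 8 down, and Calb1 and Calb2, which encode calbindin and calretinin, fell by 0.47 ± 0.10 and 0.91 ± 0.17. Cyclic nucleotide enzymes had 8 of 33 up and 6 down. All 3 calmodulin-dependent phosphodiesterases rose, Pde1a by 0.95 ± 0.09, Pde1b by 0.50 ± 0.09 and Pde1c by 1.63 ± 0.17, while the adenylyl cyclases Adcy8 and Adcy1 changed by 0.71 ± 0.11 and −0.44 ± 0.05. Regulators of G protein signalling had 7 of 17 up and 4 down, with Rgs4 at 792 and 1025 CPM with BDNF, against 630 and 570 CPM in Control.

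Of 41 axon, microtubule and neurofilament genes 13 rose and 22 fell, with a median of −0.18, and only 6 did not pass. The neurofilament genes rose together. Nefm had 288 and 302 CPM with BDNF, against 107 and 92.5 CPM in Control (1.55 ± 0.07). Nefl had 471 and 470 CPM with BDNF, against 240 and 241 CPM in Control (0.97 ± 0.05), and Nefh changed by 0.76 ± 0.11. Among those that fell were Dcx, which encodes doublecortin, at −0.38 ± 0.05, Dpysl3, a protein of growth cones, at −0.22 ± 0.04 and Stmn1, given above. Gap43, a growth-cone protein, had 1207 and 1181 CPM with BDNF, against 1241 and 1156 CPM in Control and did not pass (adjusted p = 0.931). Most tubulin genes named here fell, but Tubb6 rose by 1.10 ± 0.18.

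Actin and small GTPase regulators had 17 of 45 up and 10 down. Rock2, a kinase of the actomyosin cytoskeleton, had 269 and 339 CPM with BDNF, against 165 and 159 CPM in Control (0.91 ± 0.08). Tiam2, an activator of Rac, changed by 1.02 ± 0.12, Cap2, an actin-binding cyclase-associated protein, by 1.01 ± 0.13, Rac3 by −0.62 ± 0.07 and Cdc42ep4 by −1.39 ± 0.11. Kinesin and dynein motors had 8 of 27 up and 5 down, with 4 up and 5 down after the length and GC correction, and 2 and 3 of the uncorrected calls were held. Dync1i1, a dynein intermediate chain, had 152 and 158 CPM with BDNF, against 261 and 250 CPM in Control (−0.72 ± 0.06), opposite to the heavy chain.

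Axon guidance genes had 18 of 59 up and 16 down. Sema3e, a secreted semaphorin, had 98.6 and 138 CPM with BDNF, against 29.6 and 32.0 CPM in Control (1.95 ± 0.13). Dcc, the netrin receptor, changed by 1.10 ± 0.10, Robo1, a Slit receptor, by 1.04 ± 0.07, and Slit2 by 0.84 ± 0.08. Ephb1 had 18.4 and 19.0 CPM with BDNF, against 44.6 and 43.7 CPM in Control (−1.24 ± 0.11), and Nrp2, a semaphorin receptor, fell by 0.93 ± 0.08. Of 37 matrix proteoglycans and partners 9 rose and 8 fell. Tnc, which encodes tenascin-C, had 30.6 and 26.9 CPM with BDNF, against 6.39 and 6.99 CPM in Control (2.12 ± 0.17). Vcan, which encodes versican, had 25.5 and 35 CPM with BDNF, against 95.0 and 98.7 CPM in Control (−1.67 ± 0.12). Acan, which encodes aggrecan of perineuronal nets, had 148 and 260 CPM with BDNF, against 100 and 92.6 CPM in Control (1.07 ± 0.17). The chondroitin sulfate proteoglycan genes therefore moved in both directions, and the BDNF libraries of Acan stood wide apart.

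Extracellular proteases and inhibitors had 15 of 38 up and 8 down. Adamts1, which cuts aggrecan and versican, had 148 and 206 CPM with BDNF, against 55.0 and 56.6 CPM in Control (1.67 ± 0.11), and Adam11 fell by 1.04 ± 0.08. Growth factors and cytokines had 9 of 27 up and 2 down, Ptn and Pdgfa, neither of them held. Among those that rose were Cx3cl1, a neuronal chemokine, at 314 and 292 CPM with BDNF, against 164 and 166 CPM in Control (0.88 ± 0.06), and Vegfa (0.60 ± 0.08). TGF-beta, BMP and activin genes had 11 of 40 up and 6 down, with the inhibitor Smad7 at 0.88 ± 0.14 and Bmp3 at −1.0 ± 0.18. Wnt and Notch genes had 6 of 41 up and 6 down, which is close to the background.

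Of 29 endoplasmic reticulum folding genes 21 rose and 0 fell, with a median of 0.31, and 14 were held calls. Hspa5, which encodes the chaperone BiP, had 729 and 662 CPM with BDNF, against 501 and 485 CPM in Control (0.49 ± 0.05). The sensors of unfolded protein rose with it. Atf6 had 69.5 and 81.4 CPM with BDNF, against 37.7 and 38.3 CPM in Control (0.99 ± 0.09), Ern1, which encodes IRE1, changed by 1.01 ± 0.15, and Eif2ak3, which encodes PERK, by 0.72 ± 0.10. Xbp1 did not pass (0.18 ± 0.07, adjusted p = 0.0681). Promoters of 24 of the 29 genes were in the table, and 9 of them (37.5%) held the endoplasmic reticulum stress element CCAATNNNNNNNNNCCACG shown above for Hspa5, against 16 of 10139 promoters of tested genes (0.158%) and 35 of all 27025 (0.13%). Such genes include the ones in which the element was first described, so the match is background and not a finding.

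Amino acid transporters and ATF4 target enzymes rose in 21 of 35 cases and fell in 0, with a median of 0.37. Slc7a1, a carrier of arginine and lysine, had 272 and 264 CPM with BDNF, against 148 and 160 CPM in Control (0.81 ± 0.06). Slc7a5, a carrier of large neutral amino acids, changed by 0.52 ± 0.06, Asns, which makes asparagine, by 0.28 ± 0.05, and Atf4 itself by 0.37 ± 0.06. Slc7a11, the cystine carrier, had 9.44 and 10.9 CPM with BDNF, against 2.88 and 3.84 CPM in Control (1.67 ± 0.22). Promoters of 29 of these 35 genes were in the table, and 4 (13.8%) held TTGCNTCA, the letters capitalised above for Slc7a11, against 318 of 10139 promoters of tested genes (3.14%) and 976 of all 27025 (3.61%). The list was written to include known ATF4 targets, so this match too is background and not a finding. Of 20 cytosolic aminoacyl-tRNA synthetases 12 rose and 0 fell, with Eprs1 at 430 and 458 CPM with BDNF, against 314 and 315 CPM in Control (0.50 ± 0.05).

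Translation factors had 10 of 38 up and 3 down (Eif4a2, Eef2k and Eif5b, none of them held), and 16 up and 4 down after the length and GC correction, with Eif4g1, the scaffold of the cap-binding complex, at 0.35 ± 0.05 and Eef2 at 0.20 ± 0.05. Ribosomal protein genes, which are short, had 11 of 79 up and 4 down, and 39 up and 2 down after the length and GC correction. Their count therefore depended on that correction, and only 3 of the calls, 2 up and 1 down, were held. Rpl31 was one of those that rose, at 0.47 ± 0.07. Proteasome subunits had 7 of 31 up and 0 down, and 13 up after the correction. Cytosolic heat shock genes had 8 of 19 up and 0 down, led by Hsph1 (0.38 ± 0.05).

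Sterol and fatty acid synthesis genes rose in 20 of 38 cases and fell in 2, Tm7sf2 and Hmgcs1, with a median of 0.30. Neither call of a fall was held, and 12 of those that rose were. Lss, an enzyme of cholesterol synthesis, changed by 0.60 ± 0.10, Stard4, a sterol carrier, by 0.56 ± 0.09 and Scd1, a fatty acid desaturase, by 0.81 ± 0.11. The BDNF libraries of Lss stood apart, at 109 and 83.2 CPM. Glucose uptake and glycolysis genes had 10 of 28 up and 2 down, Pfkm and Pdk2. Slc16a1, a lactate carrier, changed by 0.64 ± 0.07, Slc2a1, a glucose carrier, by 0.75 ± 0.16, and Aldoa by 0.40 ± 0.04, while Pfkm fell by 0.26 ± 0.06. The call of Pdk2 was not held.

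Respiratory chain genes encoded in the nucleus, also short, had 3 of 76 up and 16 down with a median of −0.10, and 8 up and 5 down after the length and GC correction. Only 2 of those that fell were held calls, one of them Sdhc, a subunit of complex II (−0.34 ± 0.06). Of 8 mitochondrially encoded genes 2 rose, ND4 and ND5, and 0 fell, neither call was held, and 5 rose after the correction. Antioxidant genes had 8 of 24 up and 3 down, the ferritin genes Fth1 and Ftl1 and Gstm5, of which Fth1 alone was held (−0.25 ± 0.05), and 9 up and 1 down after the correction. Akr1b8, an aldo-keto reductase, had 9.53 and 9.03 CPM with BDNF, against 0.772 and 0.524 CPM in Control (3.71 ± 0.34), Srxn1 changed by 0.77 ± 0.10 and Txnrd1 by 0.53 ± 0.06. Lysosome and autophagy genes had 9 of 44 up and 10 down.

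Chromatin genes were divided. Remodellers and histone methylation enzymes had 14 of 52 up and 7 down, and 6 up and 12 down after the length and GC correction, so their balance depended on it. Smarca2, the BRM ATPase of the BAF complex, had 165 and 166 CPM with BDNF, against 303 and 298 CPM in Control (−0.86 ± 0.06). The H3K4 methyltransferase genes Kmt2a and Kmt2d changed by 0.67 ± 0.07 and 0.65 ± 0.09. Acetylation and DNA methylation genes had 11 of 38 up and 7 down, with Tet3 at 0.67 ± 0.08 and Ep300 at 0.56 ± 0.09. Replacement and linker histones had 0 of 14 up and 7 down, with a median of −0.39, among them H2ax (−0.57 ± 0.10) and H3f3a (−0.37 ± 0.09). Most histone messages of the cell cycle lack a poly(A) tail, so this polyadenylated RNA does not sample them well.

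Splicing regulators had 10 of 45 up and 7 down, with Srrm4, the regulator of neuronal microexons, at 0.52 ± 0.08 and Celf4 at −0.32 ± 0.05. Clock genes had 5 of 19 up and 2 down. Npas2, a partner of the clock factor BMAL1, had 31.5 and 38.0 CPM with BDNF, against 12.4 and 14.2 CPM in Control (1.42 ± 0.14), Per1 changed by 0.61 ± 0.06, and Hlf by −1.42 ± 0.21. Interferon-induced and antigen presentation genes had 4 of 16 up and 1 down, with Stat3 at 0.94 ± 0.08. B2m, which encodes the light chain of class I molecules, stood at 31.8 and 33.8 CPM with BDNF, against 12.9 and 14.9 CPM in Control (1.27 ± 0.12). Genes of p53 and of the BCL2 family had 10 of 25 up and 8 down, and 7 up and 5 down after the length and GC correction, with the survival gene Mcl1 at 0.28 ± 0.06 and the death gene Hrk at −0.69 ± 0.11.

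Transcription factors of cortical identity leaned downward. Of 44 cortical layer and pallial factors 6 rose and 16 fell, with a median of −0.09. Bhlhe22 had 57.0 and 56.6 CPM with BDNF, against 118 and 132 CPM in Control (−1.13 ± 0.10). Neurod6, Emx1, Cux2 and Lmo3 fell by 0.77 ± 0.08, 1.01 ± 0.11, 0.75 ± 0.09 and 0.86 ± 0.07. Pou3f1, a POU-domain factor, rose by 0.97 ± 0.09 and Foxp1 by 0.44 ± 0.08. Of 26 interneuron factors and surface markers 2 rose and 6 fell, with a median of −0.21. Kit, a receptor kinase of interneurons, had 228 and 279 CPM with BDNF, against 149 and 132 CPM in Control (0.84 ± 0.09), and the call of Dlx5 was not held.

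Markers of cell types were summed in each library, and only the markers tested enter a sum. Excitatory neuron markers summed to 1097 and 1053 CPM with BDNF, against 1309 and 1293 CPM in Control, and 2 of 10 rose and 7 fell. Pan-neuronal markers summed to 8298 and 8573 CPM with BDNF, against 8341 and 8355 CPM in Control, with 2 of 10 up (Map2 and Nefl), 5 down and a median of −0.14, all 7 of them held calls. Interneuron markers summed to 2127 and 2290 CPM with BDNF, against 2245 and 2167 CPM in Control, with 2 of 11 up and 1 down. The pan-neuronal sum, which overlapped between the groups, thus joins 2 genes that rose and 5 that fell.

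Markers of other cells were detected, and some moved with BDNF. Astrocyte markers summed to 489.7 and 466.2 CPM with BDNF, against 413.7 and 420.7 CPM in Control, with 2 of 10 up, Slc1a2 and Gja1, neither of them held. Slc1a2 had the most counts of these markers, and its log2 fold change was 0.00067 after the length and GC correction. Oligodendrocyte lineage markers summed to 157.3 and 171.5 CPM with BDNF, against 107.4 and 102.1 CPM in Control. Of 9 markers 2 rose, Mbp (1.35 ± 0.09) and Lhfpl3 (0.59 ± 0.08), and 7 were not called. Mbp had 50.2 and 52.2 CPM with BDNF, against 20.3 and 19.9 CPM in Control. Lhfpl3 had 70.4 and 73.6 CPM with BDNF, against 48.3 and 47.4 CPM in Control. Most of the higher sum came from these 2 genes. Of 14 listed microglia and macrophage markers, the 6 tested summed to 31.15 and 34.02 CPM with BDNF, against 23.51 and 21.85 CPM in Control. Their median log2 fold change was −0.15, and 1 of 6 rose, Cd68 (1.84 ± 0.16). Cd68 alone had 17.4 and 18.3 CPM with BDNF, against 5.19 and 4.54 CPM in Control, so the higher sum came from this gene. Progenitor and cycling cell markers summed to 336 and 348.5 CPM with BDNF, against 214 and 214.8 CPM in Control, with 6 of 13 up and 1 down. Only 1 of these calls was held, that of Vim (1.47 ± 0.07), and Vim made most of the higher sum. Such sums are weighted by their highest genes, so they are not read as a change of a cell type. Endothelial markers summed to 6.437 and 6.917 CPM with BDNF, against 6.598 and 8.039 CPM in Control, with neither of the 2 tested called, and mural and fibroblast markers to 66.08 and 74.22 CPM with BDNF, against 73.84 and 91.58 CPM in Control. In the mural list Dcn fell by 1.45 ± 0.14. The markers at 0 counts in all 4 libraries were 1 of 12 listed for astrocytes (Gjb6), 1 of 12 for the oligodendrocyte lineage (Sox10), 1 of 14 for microglia and macrophages (Tmem119) and 1 of 10 for endothelium (Tie1), and the other listed markers had counts in at least 1 library. The part of other cells in any change above was not tested.

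A small set of genes was almost silent in one group, 20 of those tested with 3 or fewer counts in the Control libraries together and 3 with as few in the BDNF libraries. A gene so low in one group is tested only because it is high in another, so the filter largely sets the direction of these genes and no count of them is read as a result. One was Mmp3, which encodes stromelysin-1, a protease of the matrix. It had 82 and 106 counts with BDNF, against 0 and 0 counts in Control, which makes it at least 52.3-fold higher when the Control group is set at a floor of 3 counts. Gcnt1, a glycosyltransferase of mucin-type chains, had 36 and 34 counts with BDNF, against 1 and 0 counts in Control, a ratio of 58.4 with a 95% counting interval of 10.1 to 2339. Sele, which encodes E-selectin, had 57 and 21 counts with BDNF, against 0 and 1 counts in Control, a ratio of 65.1 (interval 11.3 to 2602). In the other direction, Glt28d2 had 1 and 0 counts with BDNF, against 25 and 13 counts in Control, a ratio of Control over BDNF of 45.6 (interval 7.70 to 1846). These intervals cover counting error only. Mmp3 had 130 counts in the H2BE_BDNF libraries together, against 0 in the H2BE libraries.

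The H2BE virus offers the same treatment in other libraries, 2 with BDNF and 2 without. There 1809 genes rose (13.4%) and 1657 fell (12.3%). Of the genes called under the control virus, 1163 rose under both viruses, 1027 fell under both, and 30 had opposite calls. Of the 4225 genes, 3797 (89.9%) had the same sign under the H2BE virus. Of the 680 over 2-fold, 636 had the same sign and 434 were called in the same direction. The share of same signs among all genes tested was not computed, so these shares have no background here. Under the H2BE virus the log2 fold change was 1.25 for Nnat, −2.08 for Ypel1, 1.76 for Mical2 and −1.01 for Stmn1. The test of the difference between the viruses did not pass for any of the 4 genes (adjusted p of 0.976, 0.924, 0.0832 and 0.0576).

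The difference between the responses was tested in the same fit. It passed for 155 genes (1.15%), 111 of them with a higher change under the control virus and 44 with a lower one. The number depended on single libraries: edgeR called 0 without Control replicate 1 (1420 at an unadjusted p under 0.05), 0 without H2BE replicate 2 (1494 unadjusted), 1 without H2BE_BDNF replicate 3, and 897 without BDNF replicate 1. With all 8 libraries DESeq2 called 197 and limma 173. The median transcript length of those genes was 7864 bases, against 3483 bases for all genes tested. After the length and GC correction 5 genes passed, of which 3 were among the 155. Bsn, for example, changed by 0.70 under the control virus and 0.02 under the H2BE virus, and Gabbr2 by 0.50 and 0.00, and neither difference passed after the correction. Shc3 passed with and without the correction: its log2 fold change was 1.03 under the control virus and 0.37 under the H2BE virus, a difference of 0.65 (adjusted p = 0.0178) and of 0.654 after the correction (adjusted p = 0.041). In the uncorrected fit its difference was 0.616 with Control replicate 1 left out (adjusted p = 0.236), 0.61 with H2BE replicate 2 left out (adjusted p = 0.172) and 0.654 with H2BE_BDNF replicate 3 left out (adjusted p = 0.0629), so the call rests on these libraries. The other genes that passed after the correction were ND4, ND5, Serbp1 and Xkr4, named here after their values were seen.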

How the data were processed

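Polyadenylated RNA of 10 libraries was analysed from a table of raw counts per gene that the authors deposited. The submitters' processing notes name the mm10 genome, SAMtools, DESeq2 and deepTools, with the aligner, annotation and strand setting not given in the sources used here. A second deposited table, a signal of counts divided by size factors, gave gene symbols only. Genes were named from that table (12822 of 13452 tested) or from GENCODE M21 (587), which also gave lengths and coordinates.

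The main test was edgeR 4.0.16 (R 4.3.3): TMM scaling, filterByExpr (minimum count 10, minimum total 15), one mean per group over the 8 distinct libraries, a quasi-likelihood F test of BDNF minus Control, and Benjamini-Hochberg adjusted p under 0.05. CPM use the TMM sizes. Alternatives used DESeq2 1.42.0, limma 3.58.1 (voom), other filters, left-out libraries, a replicate block, thinning, and an offset per library for length and GC content (lowess span 0.3). The scripts were tested on simulated data.

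The members, the gene lists and the tests were chosen with earlier results of these data known. Genes were named by rule: the called list members of smallest p and those against the list's majority, the genes of smallest p and those of largest CPM shift. Genes without a call, members that complete a family or a count, and near-silent genes were named after their values were seen. Counting intervals (95%) and floors (3 counts) cover counting error only. Of the lists, 56 held pathways and families and 9 held cell type markers. The values of several members are not reported here.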

Additional observations from a re-analysis of the deposited data

Results flagged for a closer look

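For 20 of the genes named in the report the BDNF response differed between the control virus and the H2BE virus by the test of that difference (edgeR, adjusted p under 0.05). The values below are the log2 response under the control virus minus that under the H2BE virus, from 2 libraries in each of the 4 groups.

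Presynaptic and postsynaptic genes had Bsn at 0.687, Pclo at 0.603, Shank1 at 0.556, Grin2b at 0.492, Gabbr2 at 0.495 and Cacna1a at 0.447. Genes of the axon and of transport had Ank3 at 0.473, Dync1h1 at 0.393 and Robo1 at 0.46. Signalling genes had Shc3 at 0.651, Irs2 at 0.68, Sesn2 at 0.544, Ntrk2 at 0.34 and Adcy1 at 0.359. Carriers had Slc7a11 at 1.59, Slc8a1 at 0.633 and Slc7a1 at 0.497. The remaining genes were Ep300 at 0.613, Xkr4 at 0.702 and ND4 at 0.328.

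All 20 differences were positive, but these genes were named largely for their response under the control virus. Of all 155 called differences, 111 were positive and 44 negative. For Ntrk2 and Adcy1, which fell with BDNF, a positive difference means a smaller fall under the control virus. Transcript length moves with this pattern, since the median length of all 155 genes with a called difference was 7864 bases, against 3483 bases for all genes tested. Of the 20, Shc3, Xkr4 and ND4 kept an adjusted p under 0.05 after the length and GC correction, at 0.041, 0.031 and 0.00674. These calls depended on single libraries, and each of the 3 had an adjusted p above 0.05 without Control replicate 1 (0.236, 0.253 and 0.306).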

How the results depend on the processing

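The count of called genes, 4225 in the main test, was 2680 with DESeq2, 6465 with all 10 libraries taken as replicates, and between 2278 (without Control replicate 1) and 4499 (without BDNF replicate 1) with one library left out. Genes called up, 2264 in the main test, ranged between 1242 (without Control replicate 1) and 2404 with one library left out. Genes called down, 1961 in the main test, numbered 1101 with DESeq2, 3073 with all 10 libraries, and between 1036 (without Control replicate 1) and 2095 with one left out. Calls over 2-fold, 680 in the main test, numbered 351 with a minimum count of 50, which tests fewer genes. The called difference between the viruses, 155 in the main test, moved most: 440 with no filter, 1169 with all 10 libraries, 349 with replicate 3 in place of replicate 1, 245 with a replicate block, 5 with the length and GC correction, 22 with that correction and the replicate block, 81 with libraries thinned to the smallest, 0 with crossed replicate numbers (chosen after seeing the data), and between 0 and 897 with one library left out. The cause of these moves was not tested.

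Gria2 and Grin2b turned to −0.00131 and −0.0837 after the length and GC correction and to −0.000322 and −0.084 with the replicate block added, and Slc1a2 turned to −0.00161 in that last fit. Libraries of one replicate number did not deviate together: the correlations of their deviations were negative, −0.17 and −0.299. A replicate block gave 3693 calls, and a block with crossed numbers, chosen after seeing the data, gave 4886. Whether the libraries are paired in another way was not tested. Of the 21 alternatives, none moved the median of all genes by more than 0.02. Each fit scales the libraries so that most genes lie near no change, so this median is set by the scaling. A shift in the RNA of all genes could not be seen. Depth limits the lowest quintile of levels most, and 2 libraries a group limit every p-value.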

Other observations

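Libraries of one group were compared by the chi-square of their counts over its degrees of freedom, which is 1 for pure sampling noise. It was 5.1 for BDNF replicates 1 and 2, 1.85 for H2BE_BDNF replicates 2 and 3, 1.69 for H2BE replicates 2 and 3, and 1.83 for Control replicates 1 and 2. The pairs differ in depth, and a deeper pair gives a larger value for the same spread, so these values are not on one scale. The BDNF pair had the largest value, and the part of depth in it was not tested. The main fit estimates the spread over all groups together, so its p-values do not reflect a wider spread of the BDNF pair alone. Genes named in the report whose BDNF libraries stood apart include Cck and Acan.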
